A study of Mus musculus with 6 samples.

Results

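The histone genes of the deposited comparison were examined: 28 of the 15648 listed genes, taken as every row whose symbol begins with Hist and a digit, or with H1f, H2af or H3f. By name, 14 of them belong to the histone gene clusters and 14 to the variant histones. RNA had been sequenced from mouse tongue at E17.5, late in gestation, and the piece taken was the intermolar eminence, a bulge at the back of the tongue's upper surface. By their labels, 3 libraries are wild type (WT) and 3 are Fst-KO, mutants of the gene for follistatin, a secreted inhibitor of activins and some bone morphogenetic proteins. All 6 are labelled C57BL/6 and tongue epithelium. The allele, the sex of the embryos and whether each library is 1 embryo or a pool are not given in the sources that were used. The authors' deposited table gives for each gene the normalised mean of either group, their ratio, a p-value and an FDR, and no value per library. No standard deviation can therefore stand beside a mean, and the overlap of the groups cannot be seen for any gene. Sequencing depth is unknown.

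Histones package DNA into nucleosomes, in which H2A, H2B, H3 and H4 form the core and H1 binds the linker. Cluster genes are copied in S phase, when new DNA has to be packaged. Their mRNAs as a rule carry no poly(A) tail and end instead in a stem-loop that binds the protein SLBP. Variant genes lie outside the clusters, give polyadenylated mRNA through the whole cell cycle, and encode proteins such as H3.3, H2A.Z and macroH2A that are exchanged into chromatin without DNA replication. Some cluster genes are also known to give polyadenylated mRNA in cells that have stopped dividing. Whether the libraries were made from poly(A)-selected or rRNA-depleted RNA was not stated in any source used here.

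Fst itself, which checks the labels, had a mean of 69.7 in the libraries labelled Fst-KO and 33.2 in WT per the authors' deposited table, a ratio of 2.10 with an FDR of 0.0158. The targeted gene thus went against the label. Reads that lie outside the deleted part would check nothing, and the table does not split the gene by exon. Every direction given here is therefore that of the libraries labelled Fst-KO. The median ratio of all genes was 1.14, so ratios are also given relative to that median. Marker genes of tissues were compared too, and their counts stand against 81% of all genes with a ratio above 1. The lowest FDR of any listed marker was 0.143, for the salivary gland gene Muc19, per the authors' deposited table. Epithelial markers had ratios above 1 for 8 of 8 genes (summed level 11008 against 7560 in WT), mesenchymal markers for 8 of 8 (4975 against 3699) and red cell markers for 4 of 4 (525 against 285). Skeletal muscle markers had a ratio above 1 for 1 of 8 genes (10879 against 15021) and salivary gland markers for 0 of 3 (7.48 against 17.995). Endothelial markers had ratios above 1 for 2 of 4 genes, with sums of 188 and 189. Leukocyte markers lay above 1 for 3 of 3 genes (25.4 against 17.7) and Schwann cell and nerve markers for 3 of 4 (50.8 against 45.9). Markers of spermatids and oocytes, which use histone genes of their own, were listed for 0 of 6 genes. The part of tissue makeup in any histone value was not tested. In bulk tissue, fewer cells of a type and less RNA per cell cannot be told apart. The labels do not say that the libraries came from separate embryos, so the p-values speak only of how much these 6 libraries varied, and that variation may be technical.

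The question was whether the replication-dependent cluster genes and the variants had the same relation between the groups. Their ratios overlapped, with the cluster rows lower by median. All 14 variant rows had a ratio above 1, from 1.02 for H1f0 to 1.55 for H3f3a, while 6 of the 14 cluster rows lay above 1 and 8 below. A ratio above 1 was found for 81% of all genes. Of the cluster rows, 6 lay above the lowest variant ratio, and 3 variants lay above the highest cluster ratio, that of Hist1h2al. Variants had a median ratio of 1.25 and cluster genes one of 0.985. Divided by the median over all genes, these became 1.10 and 0.867, with 11 of 14 variants and 3 of 14 cluster rows above that median.

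None of the 28 rows passed an FDR of 0.05 in the authors' gene-specific analysis. Of all genes, 0.0767% were higher and 0.0192% lower at that threshold. With the threshold set at an unadjusted p of 0.05, the variants H2afz, H2afy2, H2afv and H3f3b (4 of 14) were higher and 2 cluster genes were lower (Hist1h1c and Hist2h3c2). No cluster gene was higher and no variant lower at that p. Among all genes 13.4% were higher at the same p and 2.17% were lower. The 4 higher rows are 14.3% of the 28, close to that background, and the 2 lower rows are 7.14%. Split by class, the higher rows are 28.6% of the variants and the lower rows 14.3% of the cluster genes, shares that rest on 4 and 2 genes. The difference between the classes itself could not be tested, because the table has no value per library and genes are not replicates.

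**Figure D1:**
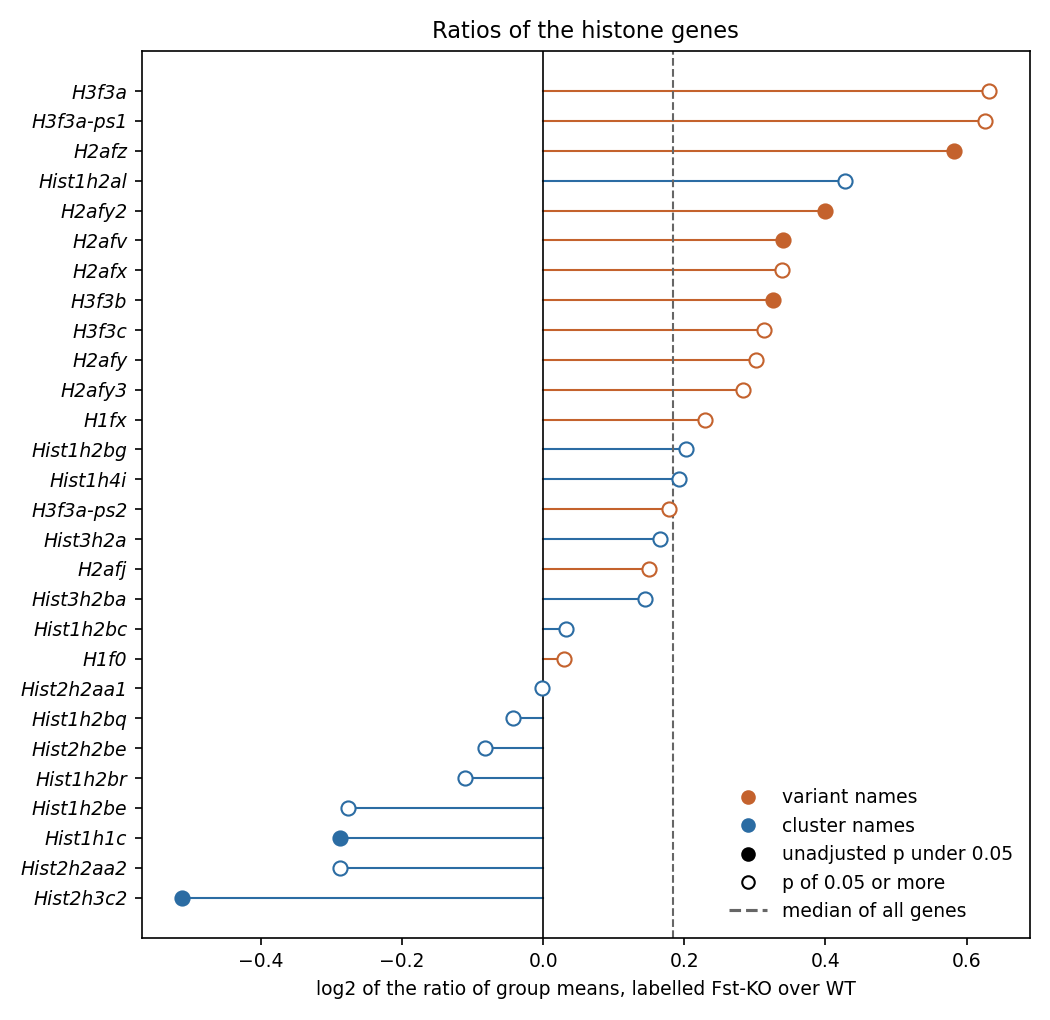
Each row is 1 histone gene and the horizontal axis is the log2 of the ratio of group means, labelled Fst-KO over WT. Filled circles have an unadjusted p under 0.05 per the authors' deposited table, and the dashed line is the median of all genes (0.18 on the log2 scale). All variant names (orange) lie right of 0, and 8 of the 14 cluster names (blue) lie left of it.

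H3.3 is the H3 variant laid down at active genes and outside S phase, and H3f3a and H3f3b encode the same protein. H3f3b had means of 542 in the libraries labelled Fst-KO and 433 in WT, for a ratio of 1.25, a p of 0.0435 and an FDR of 0.317 per the authors' deposited table. H3f3a had the highest ratio of all 28 rows, 1.55 from means of 136 and 87.9, but its p of 0.102 missed the threshold per the authors' deposited table. The larger ratio thus had the larger p, and with no values per library the spread behind it cannot be shown. Summed over both genes, the value was 678 against 521 in WT, a ratio of 1.30.

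The remaining H3 rows of the variant class, H3f3c, H3f3a-ps1 and H3f3a-ps2, are annotated as processed pseudogenes in GENCODE M21, although RefSeq lists H3f3c as protein-coding. Each is a near copy of H3f3a: 99.0%, 98.3% and 98.8% of their bases matched an H3f3a transcript. No other protein-coding histone gene compared matched any of them at more than 77.9%. The copies were not aligned to each other. Of their 50-base windows, 73.8%, 54.3% and 82.0% also occur in transcripts of other genes. In the authors' deposited table H3f3c had means of 26.9 and 21.7 with a ratio of 1.24 and a p of 0.0811. H3f3a-ps1, on the X chromosome, had 5.29 and 3.43 with a ratio of 1.54 and a p of 0.0944 per the authors' deposited table. H3f3a-ps2 had 37.4 and 33.0 with a ratio of 1.13 and a p of 0.206 per the authors' deposited table. These 3 values are uncertain, since reads of H3f3a can have been assigned to its copies. Summed over H3f3a and its 3 copies the value was 206 against 146 in WT, a ratio of 1.41.

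H2A.Z, which marks promoters and enhancers and is placed there by the SRCAP and p400 complexes, is encoded by H2afz and H2afv. H2afz had means of 58.2 in the libraries labelled Fst-KO and 38.9 in WT, for a ratio of 1.498, a p of 0.0478 and an FDR of 0.318 per the authors' deposited table. Its ratio lay above 94.5% of all genes. H2afv had means of 18.4 and 14.5, a ratio of 1.27 with a p of 0.0412 and an FDR of 0.317 per the authors' deposited table. Both H2A.Z genes were therefore on the higher side at the unadjusted threshold, and their sum was 76.6 against 53.4. They can be told apart by sequence, as their coding bases were 79.3% identical. Of the 50-base windows of H2afz, however, 69.6% also occur in transcripts of other genes, while none of those of H2afv do.

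MacroH2A histones carry a large extra domain and are enriched on silent chromatin. H2afy2, which encodes macroH2A2, had the lowest p of the histone rows. Its means were 27.6 and 20.9, a ratio of 1.32 with a p of 0.0136 and an FDR of 0.293 per the authors' deposited table. H2afy, for macroH2A1, had means of 57.2 and 46.5 and a ratio of 1.23, with a p of 0.0595 per the authors' deposited table. H2afy3, a processed pseudogene that matched H2afy2 at 95.9% of its bases, had 13.2 and 10.9, a ratio of 1.22 and a p of 0.0655 per the authors' deposited table. H2afy2 lies at chr10:61738665-61784147 on the minus strand (mm10) and overlaps Aifm2, so that reads of the overlap cannot be assigned where strand is not known.

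The other H2A variants are H2afx and H2afj. H2A.X is the form that is phosphorylated around DNA breaks, and its gene is the variant whose mRNA also exists in the stem-loop form. H2afx had means of 61.3 and 48.5, a ratio of 1.26 and a p of 0.0789 per the authors' deposited table. H2A.J is a mammalian variant known from senescent cells. H2afj had means of 30.6 and 27.6, a ratio of 1.11 and a p of 0.331 per the authors' deposited table.

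Of the linker histones outside the clusters, H1f0 had the lowest ratio of the variant class, while H1fx did not lie at its lower end. H1f0 encodes H1.0, the linker histone that accumulates in cells that have left the cell cycle. Its means were 321 and 314, a ratio of 1.02 with a p of 0.768 per the authors' deposited table. H1fx, for H1.10, had means of 22.2 and 19.0, a ratio of 1.17 and a p of 0.0515, just outside the unadjusted threshold, per the authors' deposited table. H1f0, H2afj and H3f3a-ps2 lay above 1 but turn below 1 when divided by the median ratio over all genes, at 0.898, 0.977 and 0.996.

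**Figure D2:**
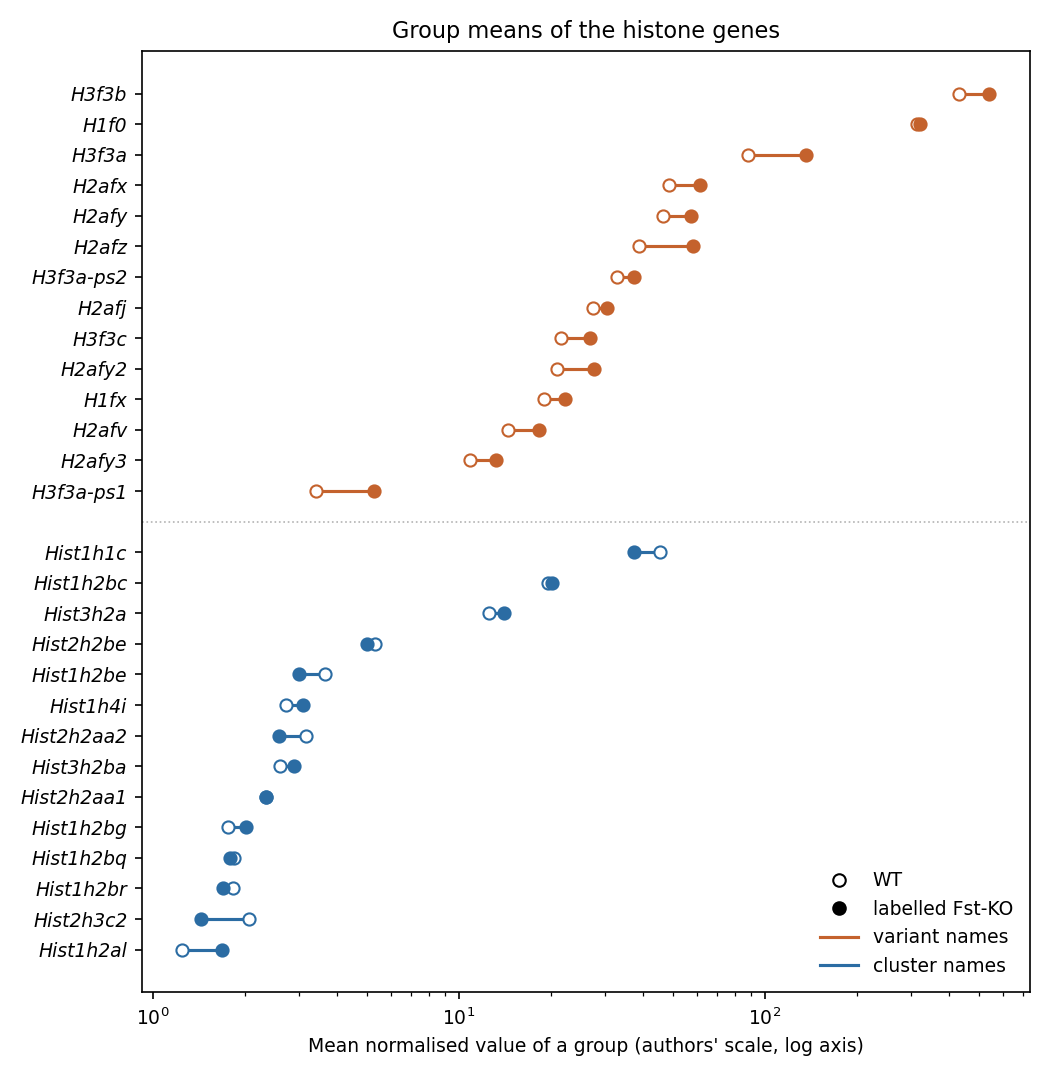
Open circles are the mean normalised value of the 3 WT libraries and filled circles that of the 3 libraries labelled Fst-KO, on the authors' scale and a log axis. All variant genes (orange) have the filled circle to the right of the open one, and Hist2h2aa1 shows 1 circle because its means are 2.34 in both groups. Whether the scale is per length is not known, so positions of different genes are not compared.

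The stem-loop, which defines replication-dependent histone mRNA, was looked for in the annotated transcripts after the stop codon, on the sense strand only, as the pattern GGNNCTTNTNAGNGCC. It was present in 9 of the 13 protein-coding cluster genes in the table and, among the 10 protein-coding variants there, in H2afx only. Of 21877 protein-coding genes, 0.279% hold the pattern anywhere in their longest transcript. In annotated transcripts, the stem-loop was thus found neither for every cluster gene nor for cluster genes alone. The following windows from GENCODE M21 (GRCm38) are shown because they hold this element, which marks replication-dependent mRNA. They are written 5′ to 3′ with the stem-loop in capitals and 5 flanking bases in lower case, for the 2 lower cluster genes, for Hist1h4i and for H2afx.
Hist1h1c: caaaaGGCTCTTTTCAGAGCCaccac
Hist2h3c2: acaaaGGCTCTTTTCAGAGCCaccac
Hist1h4i: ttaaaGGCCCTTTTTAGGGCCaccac
H2afx: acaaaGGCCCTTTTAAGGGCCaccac
Hist1h1c and Hist2h3c2 share 1 stem-loop with 6 other members in the table, while Hist1h4i and H2afx have a different stem pair and loop.

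Among the cluster genes, the linker histone Hist1h1c (H1.2) had the lowest p. Its means were 37.4 in the libraries labelled Fst-KO and 45.6 in WT, for a ratio of 0.819, a p of 0.0223 and an FDR of 0.301 per the authors' deposited table. It lies at chr13:23738808-23740367 on the plus strand (mm10) and has 1 exon. The 3 linker histone rows thus had ratios of 0.819 for Hist1h1c, 1.02 for H1f0 and 1.17 for H1fx per the authors' deposited table.

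Hist2h3c2, the only cluster H3 gene in the table, had the lowest ratio of the 28 rows. Its means were 1.44 and 2.06, a ratio of 0.701 with a p of 0.0499 and an FDR of 0.321 per the authors' deposited table. Its p lies just inside the threshold. Of its 50-base windows, 63.5% also occur in transcripts of other genes, Hist2h3c1 among them. H3 rows therefore stood at both ends of the histone ratios, with the H3.3 gene H3f3a at the top and the cluster gene Hist2h3c2 at the bottom. The single cluster H4 gene, Hist1h4i, had means of 3.11 and 2.72, a ratio of 1.14 and a p of 0.278 per the authors' deposited table.

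Cluster H2B genes were the best represented, with 7 rows, and none had a p under 0.05. Their ratios ran from 0.826 to 1.15 with a median of 0.971. Hist1h2bc had means of 20.1 and 19.7 with a ratio of 1.02, and Hist2h2be 5.03 and 5.33 with a ratio of 0.944 per the authors' deposited table. Hist1h2be had means of 3.01 and 3.65, a ratio of 0.826 and a p of 0.151 per the authors' deposited table, and its annotated span overlaps Hist1h1e. Hist1h2bg stood at 2.02 and 1.76 with a ratio of 1.15, and Hist3h2ba at 2.89 and 2.61 with a ratio of 1.11 per the authors' deposited table. Hist1h2bq and Hist1h2br have identical coding bases and share 100% and 99.8% of their 50-base windows with other transcripts. Their ratios were 0.971 and 0.926 per the authors' deposited table, and their summed value was 3.49 against 3.67. The H2B sum over all 7 rows was 36.5 against 36.7, a ratio of 0.996.

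The cluster H2A rows were Hist3h2a, Hist2h2aa1, Hist2h2aa2 and Hist1h2al. Hist3h2a had means of 14.1 and 12.6, a ratio of 1.12 and a p of 0.274 per the authors' deposited table. Hist2h2aa1 and Hist2h2aa2 are neighbouring copies on chromosome 3 with identical coding bases. All of their 50-base windows also occur in transcripts of other genes, some of which overlap them. Hist2h2aa1 had means of 2.34 and 2.34 with a ratio of 0.999, and Hist2h2aa2 had 2.60 and 3.17 with a ratio of 0.819 per the authors' deposited table. Reads within the coding bases cannot tell these 2 copies apart, and their sum of 4.94 against 5.51 gives a ratio of 0.895.

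Hist1h2al had the highest ratio of the cluster names, 1.34 from means of 1.68 and 1.25, with a p of 0.338 per the authors' deposited table. By annotation it does not belong to the cluster: it is a processed pseudogene at chr13:51202727-51203065 on the minus strand (mm10), and 99.4% of its bases matched Hist2h2aa1 and Hist2h2aa2. Without it the highest cluster ratio was 1.15, and 11 of the 14 variants had a higher one. Without all 5 annotated pseudogenes the median ratios were 0.971 for 13 cluster genes and 1.26 for 10 variants, all of which stayed above 1.

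By chromosome, the 4 rows of the Hist2 cluster on chromosome 3 all lay below 1, with a median of 0.881, while 81% of all genes lay above 1. Hist2h2aa1 was only just below, at 0.999. These rows may not be separate measurements, since Hist2h2aa1 and Hist2h2aa2 have identical coding bases. Hist2h3c2 shares 63.5% of its 50-base windows with transcripts of other genes. The 2 rows of the Hist3 cluster on chromosome 11 both lay above 1, at 1.12 for Hist3h2a and 1.11 for Hist3h2ba per the authors' deposited table. Without Hist1h2al, the Hist1 rows on chromosome 13 had a median of 0.971, with 3 of 7 above 1. Divided by the median ratio over all genes, both Hist3 rows turned below 1, at 0.987 and 0.973.

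Summed values weight the genes by their values on the authors' scale, which may depend on transcript length. Over the variants the sum was 1358 in the libraries labelled Fst-KO and 1120 in WT, a ratio of 1.21, and without H3f3b, which adds the most to the sum on the authors' scale, the ratio was 1.19. Over the cluster genes the sum was 99.2 against 106, a ratio of 0.932. That value rests on Hist1h1c: without it the cluster sum was 61.8 against 60.8, a ratio of 1.02. The listed cluster genes were thus near 1 by sum as by median. Over all genes the ratio of sums was 1.06 and the median ratio 1.14, both above those of the listed cluster genes.

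Grouping the rows by the stem-loop shown above for Hist1h1c and H2afx in place of the name, which was chosen after the values were seen, gave 10 genes with and 18 without it. Their median ratios were 1.05 and 1.22, with 5 of 10 and 15 of 18 above 1, against 81% of all genes. The 5 annotated pseudogenes, all above 1, have no annotated stop codon, could not be searched, and fall among the 18. The 2 lower genes at an unadjusted p under 0.05 both have the stem-loop, and the annotated transcripts of the 4 higher ones hold no match. With the stem-loop the median lay above 1 but still below the 1.14 of all genes. Hist1h2bc and Hist2h2be, whose annotated transcripts hold no match, had ratios of 1.02 and 0.944 per the authors' deposited table, in the lower part of the group without it.

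Only part of the cluster is in the table. GENCODE M21 annotates 67 protein-coding genes with cluster names, of which 13 are listed: 1 of 6 for H1, 3 of 18 for H2A, 7 of 18 for H2B, 1 of 12 for H3 and 1 of 13 for H4. The other 54 are not analysed here. Genes low in both groups are not in the table, whose lowest mean over both groups is 1.01, so the 14 cluster rows do not stand for the whole class. Listed cluster genes have longer annotated transcripts, with a median of 1156 bases against 498 for the others. Among those with a stem-loop, the transcripts run on for a median of 330 bases after it in the 9 listed genes and 51 bases in the 35 others. A poly(A) signal (AATAAA or ATTAAA in the last 50 bases) stands in 8 of 13 listed and 9 of 54 other genes. The annotation is from many tissues and does not show which form was present in these libraries.

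**Figure D3:**
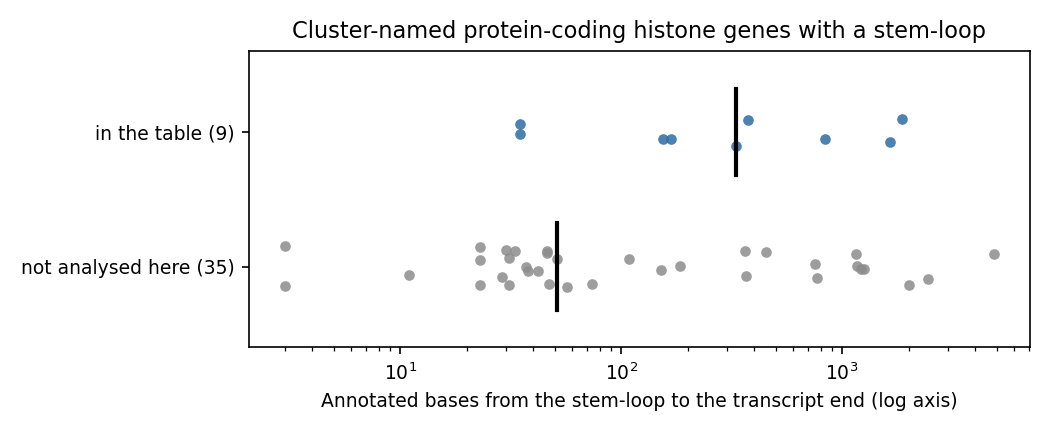
Each point is a protein-coding gene with a cluster name and a stem-loop, and the log axis gives the annotated bases from the stem-loop to the end of its transcript. The 9 genes in the table have a median (black bar) of 330 bases and the 35 not analysed here one of 51, with wide overlap.

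Genes that work with histones came from lists chosen with earlier results of these data known. DNA replication and S phase genes had ratios above 1 for 41 of 41 genes, against 81% of all genes, with a median of 1.37. Of these, 29 passed an unadjusted p of 0.05 on the higher side and 0 on the lower, against 13.4% and 2.17% of all genes. Examples are Uhrf1, which reads newly replicated DNA, at 1.38, the licensing factor Cdt1 at 1.36, the clamp loader subunit Rfc2 at 1.47 and the ribonucleotide reductase subunit Rrm2 at 1.32 per the authors' deposited table. The rows with cluster names had a median of 0.985, and 9 of 14 lay below the lowest S phase ratio of 1.09. Of the variants, 1 of 14 lay below it and 3 lay above the S phase median. Cluster genes are as a rule copied in S phase, but this is not shown for every row here. Hist1h2al is an annotated pseudogene outside the cluster, and Hist1h2bc, Hist2h2be, Hist1h2bq and Hist1h2br had no stem-loop match. Mitosis genes had a median of 1.32, with 16 of 20 higher and 1 lower at that p. Cdk1 stood at 1.38, Ttk at 1.61 and Aurkb at 1.27, and the lower gene was Ube2c at 0.635 per the authors' deposited table. The means of Ube2c, 430 in the libraries labelled Fst-KO and 676 in WT, were the highest of that list on the authors' scale. The difference between the cluster genes and these lists was not tested. Most cluster rows have low values on the authors' scale, with 11 of 14 under a mean of 6. The 3472 genes with a mean under 5 had a median ratio of 1.18 against 1.14 for all genes, and 77.4% of them lay above 1 against 81%. The part of a low value in the cluster ratios was not tested.

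The list for transcription of histone genes had a median of 1.20 over 15 genes. It holds activators as well as repressors, E2f7 and E2f8 among the latter, and the replication initiation factor Ticrr. Of the 15 genes, 7 passed an unadjusted p of 0.05, all on the higher side, against 13.4% of all genes. Ccne2 and Cdk2, which form the cyclin E kinase that acts on the histone locus factor NPAT, had ratios of 1.30 and 1.26, and Ticrr and E2f7 had 1.34 and 1.25 per the authors' deposited table. Genes of histone mRNA processing and decay had ratios above 1 for 21 of 21 genes and a median of 1.18. Slbp, whose protein binds the stem-loop, had means of 34.6 and 28.1 with a ratio of 1.23, and the cleavage factor Cstf2 had 1.18 per the authors' deposited table. These were the 2 of 21 with an unadjusted p under 0.05, a share below the 13.4% of all genes, and a ratio above 1 was found for 81% of all genes. The 2 other entries of that list, Ars2 and Tut7, are second symbols of Srrt and Zcchc6, which are counted.

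Chaperones were listed by the time at which they work, and the counts stand against 13.4% of all genes higher at an unadjusted p under 0.05 and 81% with a ratio above 1. Replication-coupled deposition had a median of 1.30, with 17 of 17 above 1 and 8 higher at that p. The CAF-1 subunits Chaf1a and Chaf1b, which bring H3 and H4 to new DNA, had ratios of 1.34 and 1.64, Nap1l1, a chaperone of H2A and H2B, 1.31, and the helicase subunit Mcm2, which also binds H3, 1.30 per the authors' deposited table. Replication-independent deposition and exchange had a median of 1.19, with 20 of 20 above 1 and 5 higher at that p. Hjurp, the chaperone of the centromeric H3 variant, had a ratio of 1.38 and Cenpa, that variant itself, 1.29 per the authors' deposited table. Atrx, which lays down H3.3 at repeats, had 1.19, and Cabin1, a subunit of the HIRA complex for H3.3, had 1.27 per the authors' deposited table. Genes of cell cycle exit had a median of 1.09 over 11 genes, with Rbl1 at 1.21 the only one past an unadjusted p of 0.05 per the authors' deposited table. No gene of these 7 lists passed an FDR of 0.05, and the gaps between their medians were not tested.

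**Figure D4:**
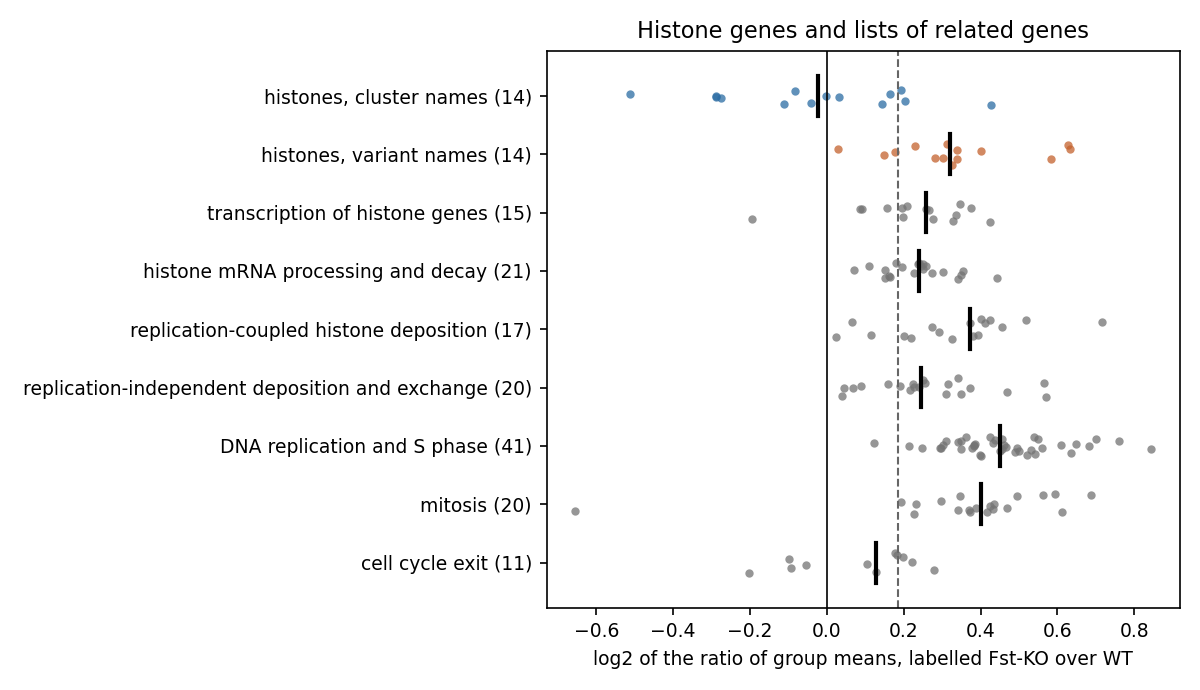
Points are genes, black bars are list medians and the dashed line is the median of all genes, on the log2 scale of the ratio of labelled Fst-KO over WT. The number of genes stands in parentheses. The cluster histones have the lowest median of the 9 rows drawn, and DNA replication and S phase the highest.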

How the data were processed

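The source is 1 table of the authors' comparison of mutant against WT, with no value per library, so the tests planned for values per library gave way to the deposited p-value and FDR. Tools named per the submitters' processing notes are BWA 0.7.12 and Partek, with the build mm10. The series' design text names gene-specific analysis (GSA) as the test. No source used here states the annotation, the counting, the strand or the normalisation. The BWA algorithm is not stated either. If reads were aligned to a genome in 1 stretch, those across exon junctions of the spliced variants can have been lost, in both groups. The deposited group means are a normalised signal of unknown scale, and the ratio is the authors' quotient of them, which held for all 15648 genes. The column of totals is also a deposited signal and equals 3 times the sum of both means. The deposited FDR could be recomputed from the deposited p-value by the Benjamini-Hochberg method for all 15648 genes (relative tolerance 1e-06). The column of signed fold changes was not used.

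Medians, sums and counts were computed with Python 3.11.15, pandas 2.3.3 and numpy 2.4.6, after a check on simulated data. Positions, transcripts and 50-base windows came from GENCODE M21 (GRCm38, the assembly of mm10), with all 28 symbols matched. Each gene was read in its longest protein-coding transcript, and windows were searched on both strands in all annotated transcripts. Copies were aligned with edlib 1.3.9.post1. All 28 members were described, and of related lists up to 4 genes with the lowest unadjusted p under 0.05. Members and lists were chosen with earlier results of these data known. Alternatives changed the scaling, the pseudocount, the filter on level, the membership and the adjustment.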

Additional observations from a re-analysis of the deposited data

How the results depend on the processing

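No FDR call was made under any alternative, and the 4 variants higher at an unadjusted p under 0.05 stayed 4 under all but 1. That one asked for an FDR of 0.05, adjusted over genes at or above the median level, in place of the unadjusted p: 0 higher and 0 lower rows passed, as under the FDR over all genes. Among such genes the lower calls fell from 2 to 1. On the log2 scale the main medians were -0.02 for cluster genes and 0.32 for variants, a difference of -0.34, and the sums gave -0.10 and 0.28. Relative to the median gene the medians became -0.21 and 0.14 and the sums -0.29 and 0.0940. A pseudocount of 10 gave 0.22 for the variants and a difference of -0.22. Genes at or above the median level, of which 2 are cluster genes, gave -0.13 and a difference of -0.45. Without Hist1h2bc, Hist2h2be and Hist3h2ba, grouped as germ cell or replication-independent genes, the cluster median was -0.04 and the difference -0.36. Classes set by the stem-loop, an alternative chosen after seeing the data, gave 0.0715 for the cluster class, a difference of -0.22 and a sum of 0.0585. The annotated pseudogenes could not be searched for it and fell in the other class. The cluster sum turned to 0.0510 with H2afx added and to 0.0239 without Hist1h1c. The difference of medians was negative under every alternative run. Scaling to the median gene or to equal sums shifts both classes alike, so those 2 alternatives could not change it. Depth is unknown, so no interval could be set on the low cluster values. No paired analysis was possible because the table gives no value per library, and for the same reason leaving out each library in turn was not run.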

Other observations

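Genes that act on H2A.X and H2A.Z were described apart. All 11 listed had a ratio above 1, with a median of 1.140 against 1.136 for all genes. Of these, 3 were higher at an unadjusted p under 0.05, against 13.4% of all genes. Eya2, whose protein removes a phosphate from a tyrosine of H2A.X and which is also a transcriptional coactivator, had means of 9.37 and 1.44, a ratio of 6.49 and an FDR of 0.0219 per the authors' deposited table. Its relative Eya1 had 1.71 and Brca1, a repair factor recruited to phosphorylated H2A.X, had 1.24 per the authors' deposited table. The other 8 had no p under 0.05.

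Promoters (250 bases before to 50 after the start, RefSeq, GRCm38.p6) were matched for 21 of the 28 members, and 5 motifs were searched on both strands, each counted apart even where motifs share bases. The CCAAT box (CCAAT) was found in 10 of 11 cluster and 6 of 10 variant promoters, against 37.9% of 27025 promoters. The TATA box (TATAAA) was found in 4 of 11 and 1 of 10, against 14.2%, and the octamer (ATTTGCAT) in 2 of 11 and 1 of 10, against 1.75%. The H1 box (AAACACA) was found in 1 of 11 and 1 of 10, against 7.14%. The E2F site (TTTCCCGC, TTTCGCGC, TTTGCCGC or TTTGGCGC) was in 0 of 21, against 2.32%. The cluster promoters are not all separate sequences: those of Hist1h2bq and Hist1h2br are identical, and those of Hist2h2aa1 and Hist2h2aa2 match over most of their length. A match is a description of these letters only. The promoters of the cluster gene with the lowest p and of the variant with the highest ratio among those with a p under 0.05 are shown 5′ to 3′ with the motifs in capitals: Hist1h1c at chr13:23738557-23738856 (plus strand) and H2afz at chr3:137864237-137864536 (plus strand). Hist1h1c holds 1 H1 box and 1 CCAAT box, and H2afz holds 3 CCAAT boxes and none of the other motifs.
Hist1h1c: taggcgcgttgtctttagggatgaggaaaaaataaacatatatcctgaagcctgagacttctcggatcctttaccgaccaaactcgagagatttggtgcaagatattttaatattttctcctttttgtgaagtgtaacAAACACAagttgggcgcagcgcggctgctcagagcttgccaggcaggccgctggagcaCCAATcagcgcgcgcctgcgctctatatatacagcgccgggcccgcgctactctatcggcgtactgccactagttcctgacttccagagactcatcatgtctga
H2afz: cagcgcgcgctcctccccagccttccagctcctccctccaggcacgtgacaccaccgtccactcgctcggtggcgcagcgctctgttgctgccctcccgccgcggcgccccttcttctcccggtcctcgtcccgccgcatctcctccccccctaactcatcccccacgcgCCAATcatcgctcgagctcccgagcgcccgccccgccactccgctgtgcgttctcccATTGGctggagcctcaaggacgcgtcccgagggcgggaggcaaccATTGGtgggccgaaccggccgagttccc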
